A study of Mus musculus with 31 samples.

Results

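The genes described here encode chaperones and heat shock proteins, and their transcripts were measured on arrays of a mouse T cell line treated with the peptide neuromedin U (NmU). The list held every probe set whose single gene symbol in the array's probe annotation begins with Hsp and a letter or digit, with Dnaj, or with Cct and a digit. Hspa5, Hsp90b1 and the heparan sulfate gene Hspg2 were left out. This gave 53 genes of 8251 on the array, measured by 75 of 12422 non-control probe sets, and all 75 matched a RefSeq gene of the same symbol. D10.G4.1 is a cloned mouse helper T cell line of the Th2 type. NmU is a neuropeptide that acts through G protein-coupled receptors, and phosphate-buffered saline (PBS) was its vehicle control. The groups were NmU and PBS at 0.8, 3, 6 and 12 h of treatment, with 4 arrays each, except NmU at 3 h, which had 3, for 31 arrays in all. The labels state neither the dose of NmU nor any stimulation of the T cells. All groups come from 1 clone, and the labels do not say whether replicates were separate cultures. The p-values therefore reflect spread among these arrays, and that spread may be technical.

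Chaperones bind unfolded or partly folded proteins and keep them from aggregating. Hsp70 proteins hold a substrate through cycles of ATP hydrolysis, which J-domain proteins (the Dnaj genes) start and nucleotide exchange factors such as the Hsp110 proteins end, while Hsp90 acts later on client proteins that include kinases and receptors. The chaperonins Hspd1 with Hspe1 in mitochondria and the Cct ring in the cytosol enclose a substrate, and many of these genes are induced under protein stress by heat shock factors, which bind repeats of the letters GAA and its complement TTC in promoters. T cells raise protein synthesis when they are activated, and the demand for protein folding rises with it. Not every gene on the list is known as a chaperone: Dnajb13 is known from the axoneme of sperm tails and Hspb11 from intraflagellar transport.

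Signals are linear intensities as deposited. A probe set was tested if the mean of its log2 signals was above log2 of 20.2 in at least 1 group. This kept 60 member probe sets for 46 genes among 7930 in all. The other 15 were dim, and for Hspa1a, Hspa1b, Hspa2, Hspb1, Dnajb2, Dnajb5 and Dnajb8 no probe set was kept. Signals of different probe sets cannot be ranked against each other, and below the groups of a probe set are compared only among themselves. Of 8 T cell markers 7 are on the array and all 7 lay above the filter, as did all 5 Th2 markers, with Gata3 at a mean signal of 2268. Cd8a and Cd8b1, defining markers of CD8 T cells, had mean signals of 3.57 and 3.80. Of the markers of other cells, 4 of 5 B cell genes (none above 59.2), 4 of 7 macrophage or dendritic cell genes (none above 98.2), 1 of 2 red cell genes (36.7) and 2 of 4 fibroblast genes passed the filter. Among the fibroblast genes Col1a2 had a mean signal of 380, with 251.5 to 508.7 over the arrays. The summed signal of the T cell markers was 6430 to 8725 on NmU arrays and 5638 to 7407 on PBS arrays, and that of the fibroblast markers 315 to 566 on NmU arrays and 297 to 615 on PBS arrays. In a bulk sample, fewer cells that express a gene and less of its RNA per cell cannot be told apart.

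One array stood apart, in these genes and over all probe sets. On the PBS array at 3 h with replicate number 4, 31 of the 60 members (51.7%) had a higher signal than on all 3 other arrays of its group, against 27.7% of all 7930 probe sets. The median member lay 0.21 above the mean of the other 3 on the log2 scale, and the median of all probe sets lay at -0.03. Lower than on all 3 others were 9 of the 60 members and 2733 of the 7930 probe sets. Over all probe sets, the SD of log2 deviations from group means was 0.39 on this array and 0.25 to 0.35 on the others. Members were not matched with other probe sets of like signal, so whether the shift is particular to them was not tested. This array was highest for 8 of 11 Cct, 7 of 11 Hsp70 and Hsp110 and 3 of 3 DnajA probe sets, but for only 1 of 9 of the DnajB family. Hsph1, an Hsp110 protein that releases nucleotide from Hsp70, had a signal of 1839.7 on this array, against 861 to 1019.8 on the other 3. Every result at 3 h is therefore given with and without this array where the call depends on it. Leaving out a PBS array on which members are high raises NmU minus PBS for those members in any case. Rises or calls gained that way are thus not separate evidence of an effect.

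In these cells Hspa1a, Hspa1b and Hspb1, members known for induction by heat, lay below the filter in every group. Hspa1a, the inducible Hsp70, had signals of 2.9 to 33 over the 31 arrays with 9 of them at or under the floor of 5.8, and its copy Hspa1b, with nearly the same sequence, reached at most 12.4, with 21 at or under it. For Hspb1, the inducible small heat shock protein, the highest signal was 12.6, with 16 arrays at or under the floor. No fold is given for these genes, which were dim in every group. A dim probe set can also reflect a poor probe, which was not tested.

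The heat shock element was searched for in RefSeq promoters (GRCm38.p6, 250 bases before to 50 after each start), which covered 45 of the 53 genes with 59 promoters. The element of 3 units was read as GAA and TTC in alternation, with 2 free bases between units, starting with either and on both strands. The shorter element of 2 units, which every longer match contains, was read in the same way. The longer element was present in 6 of 59 member promoters (10.2%) and in 198 of all 32851 promoters (0.603%). Those 6 promoters belong to Hspd1, Hspe1, Dnajb6 and Hsph1, and the first 2 genes lie head to head on chromosome 1 and share the match. Counted by gene, the longer element was thus present in 4 of 45 members, against 179 of all 27025 genes. The shorter element was present in 16 of 59 member promoters (27.1%), against 15.1% of all. None of the promoters of Dnajc1, Dnajc8, Dnajc9, Dnajb1 and Hspa4l, the members that changed with NmU (below), held either form. The sequences shown are a selection by hand from the members with a match, followed by those of Dnajb1 and Dnajc1, with no match. Other members with a match, among them Hsph1, Cct5, Dnaja1 and Hspa1b, are not shown. Capitals mark the match, of 3 units for Hspe1 and Dnajb6 and of 2 units for Hspa1a and Hspb1. The stretch at Hspe1 is chr1:55088053-55088082 on the plus strand, and its 2 overlapping matches begin 89 and 84 bases before the start of the gene. The others are the 150 bases before the start: Dnajb6 at chr5:29735748-29735897 (plus), Hspa1a at chr17:34972157-34972306 (minus), Hspb1 at chr5:135887769-135887918 (plus), Dnajb1 at chr8:83608025-83608174 (plus) and Dnajc1 at chr2:18392831-18392980 (minus).
Hspe1: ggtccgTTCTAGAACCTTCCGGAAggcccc
Dnajb6: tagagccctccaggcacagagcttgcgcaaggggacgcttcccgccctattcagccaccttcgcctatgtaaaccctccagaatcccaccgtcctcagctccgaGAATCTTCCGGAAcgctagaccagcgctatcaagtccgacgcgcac
Hspa1a: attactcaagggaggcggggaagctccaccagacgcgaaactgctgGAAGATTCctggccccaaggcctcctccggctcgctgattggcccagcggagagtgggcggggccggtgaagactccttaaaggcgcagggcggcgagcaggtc
Hspb1: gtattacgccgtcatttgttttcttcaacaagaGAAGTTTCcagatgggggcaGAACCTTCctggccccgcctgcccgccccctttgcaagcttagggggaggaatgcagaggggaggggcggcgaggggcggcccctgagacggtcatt
Dnajb1: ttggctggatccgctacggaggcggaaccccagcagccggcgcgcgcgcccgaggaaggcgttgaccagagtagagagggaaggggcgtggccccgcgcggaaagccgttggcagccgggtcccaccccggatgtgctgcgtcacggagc
Dnajc1: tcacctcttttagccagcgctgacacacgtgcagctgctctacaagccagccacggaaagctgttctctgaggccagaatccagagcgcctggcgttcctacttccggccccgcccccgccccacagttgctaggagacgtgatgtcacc
A match is a stretch of letters and says nothing of binding in these cells, and its absence says only that these letters are not in the window.

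Few chaperone transcripts were called with NmU, and in the main fit the share called was below that of all probe sets at each time. The counts are small, and whether the shares differ was not tested. At 3 h the members' share was the higher one under some alternatives (below). A probe set was called where limma's adjusted p, over all 7930, was under 0.05. At 0.8 h limma called 0 of 60 members (4 at an unadjusted p under 0.05, a rule that 6.8% of all probe sets met), with 0.845% of all probe sets called. At 3 h it called 4, of which Dnajc1 and Hspa4l rose and Dnajc9 and Dnajb1 fell, which is 6.67% of the members against 10.2% of all probe sets (4.44% higher and 5.73% lower). At an unadjusted p under 0.05 the members' share was the higher one at 3 h, with 17 of 60 (28.3%) against 24.1%. At 6 h Dnajc1 rose and Dnajc8 fell, 2 of 60 or 3.33%, against 4.88% of all (2.85% higher and 2.03% lower), and 8 had an unadjusted p under 0.05 (13.3%, against 17.4%). At 12 h limma called 0 members (9 at an unadjusted p under 0.05, or 15%, against 11.1% of all), with 1.26% of all probe sets called. The median log2 fold change of the members, NmU minus PBS, was -0.03, 0.07, 0.04 and 0.01 at 0.8, 3, 6 and 12 h, and that of all probe sets -0.04, -0.03, 0.02 and -0.02.

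**Figure D1:**
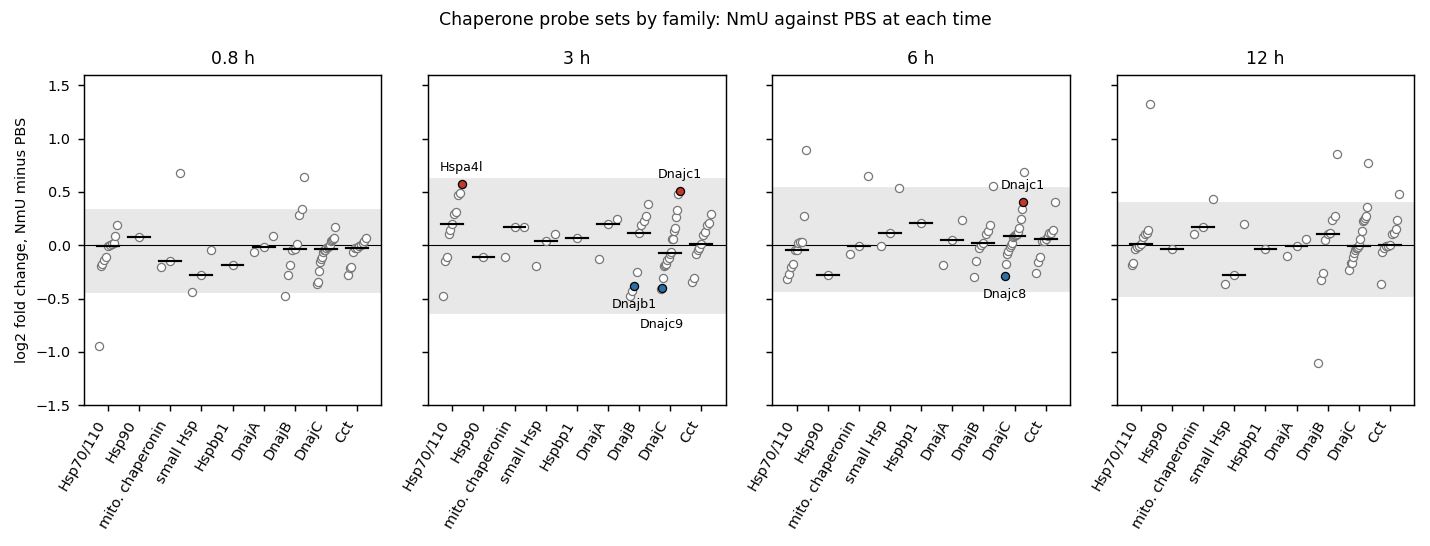
Log2 fold change of NmU over PBS (y axis) for the 60 tested member probe sets by family (x axis), with 1 panel for each time. Open points were not called, red points rose and blue points fell (limma adjusted p under 0.05), black lines are family medians, and the grey band spans the 5th to 95th percentile of all 7930 probe sets. Most members lie inside the band, and 4 at 3 h and 2 at 6 h are called.

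By family, the calls lay in Hsp70 and Hsp110 (1 of 11 at 3 h), DnajB (1 of 9 at 3 h) and DnajC (2 of 18 at 3 h and 2 of 18 at 6 h). None was called at any time among 11 Cct, 3 mitochondrial chaperonin, 3 small Hsp, 3 DnajA, 1 Hsp90 and 1 Hspbp1 probe sets. At 3 h, family medians of the log2 fold change were 0.20 for Hsp70 and Hsp110, 0.17 for the mitochondrial chaperonins, 0.04 for the small Hsp, 0.20 for DnajA, 0.11 for DnajB, -0.07 for DnajC and 0.01 for Cct. At 6 h all families with 3 or more probe sets had medians between -0.04 and 0.12. Without the PBS array that stood apart, the 3 h medians were 0.26 for Hsp70 and Hsp110, 0.27 for the mitochondrial chaperonins, -0.12 for the small Hsp, 0.23 for DnajA, 0.04 for DnajB, -0.02 for DnajC and 0.14 for Cct. Medians of small families rest on few probe sets, and these differences between families were not tested.

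Among the J-domain proteins, Dnajc1 changed at more than 1 time. It encodes a J-domain protein of the endoplasmic reticulum membrane that engages the luminal Hsp70 Hspa5 and binds ribosomes. At 3 h its signals were 329.8, 351 and 386 on NmU arrays and 243, 257, 240.2 and 258 on PBS arrays. Every NmU array was higher than every PBS array, and the transcript rose. The difference, NmU minus PBS, was 0.51 ± 0.11 on the log2 scale (here and below ± its SE, with limma adjusted p = 0.00315). At 6 h the signals were 357, 314, 348 and 349 on NmU arrays and 237, 269, 230.1 and 302 on PBS arrays. Again the groups did not overlap, and the rise was 0.41 ± 0.10 (limma adjusted p = 0.0196). At 12 h the NmU arrays, at 354, 329.7, 320.1 and 443, were still all higher than the PBS arrays, at 271, 285, 277 and 282. The difference of 0.36 ± 0.10 did not pass the threshold there (limma adjusted p = 0.0918), nor did that at 0.8 h, 0.07 ± 0.10 (limma adjusted p = 0.977). A test over the 4 times did not find that its effect differed between them (limma adjusted p = 0.282). A second, dim probe set of Dnajc1 was not tested.

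Dnajc9, a J-domain protein that binds histones H3 and H4, fell at 3 h. Its signals were 1059, 938 and 1015 on NmU arrays and 1222, 1352, 1415 and 1316 on PBS arrays, with no overlap. The log2 fold change was -0.40 ± 0.09 (limma adjusted p = 0.00515). At 12 h its mean signal was 1626 ± 128 on NmU arrays and 1371 ± 163 on PBS arrays (SD, n = 4 each), a difference of 0.25 ± 0.09 on the log2 scale that did not pass (limma adjusted p = 0.210). The effect of NmU on Dnajc9 differed between the times (limma F test over times, adjusted p = 0.0107). Of the steps from one time to the next, that between 0.8 and 3 h passed, with a change of the effect of -0.45 ± 0.13 (limma adjusted p = 0.0486). Over all probe sets, 3.29% passed for that step, 0.719% for the step between 3 and 6 h and 0.101% for that between 6 and 12 h.

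Dnajb1, the major heat-inducible J-domain partner of cytosolic Hsp70, fell at 3 h as well. Its signals there were 133, 133 and 122 on NmU arrays and 182, 142, 176 and 178 on PBS arrays, and the highest NmU array was below the lowest PBS array. The log2 fold change was -0.38 ± 0.10 (limma adjusted p = 0.0155). At 0.8 h it was 181, 197, 203 and 196 on NmU arrays and 157, 161, 159 and 160.0 on PBS arrays. All NmU arrays were thus higher at this first time, although the difference of 0.28 ± 0.10 did not pass (limma adjusted p = 0.309). At 12 h every NmU array, at 148, 129, 143 and 114, was lower than every PBS array, at 162, 177, 158 and 172, with a difference of -0.33 ± 0.10 that did not pass either (limma adjusted p = 0.101). At 6 h the groups overlapped and differed by -0.03 ± 0.10. The effect of NmU on Dnajb1 differed between the times (limma F test over times, adjusted p = 0.0102), and between 0.8 and 3 h it changed by -0.67 ± 0.14 (limma adjusted p = 0.00661). Dnajb1 and Dnajc9 were the 2 members of 60 for which the effect differed between times, 3.33% against 4.04% of all probe sets.

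**Figure D2:**
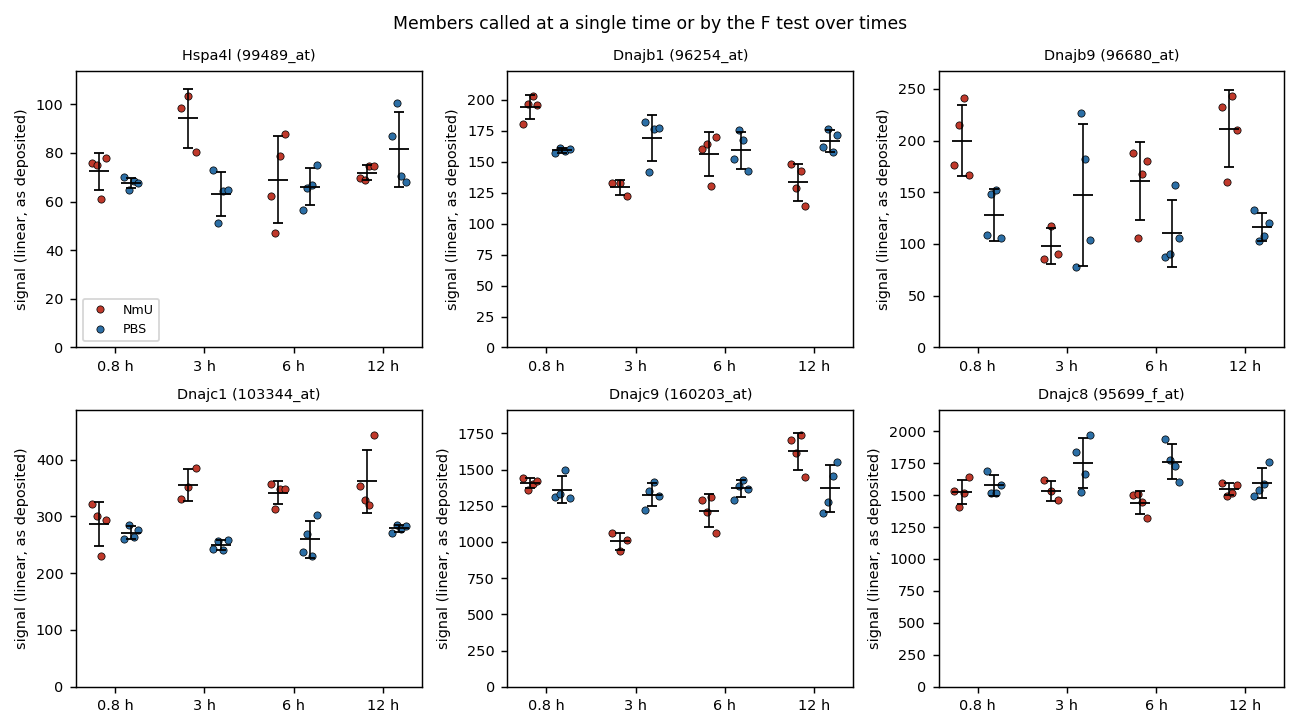
Signal (y axis, linear, as deposited) on every array at each time (x axis) for 6 probe sets called at a single time or over all times. Dnajb13, also called by the F test for any time, is not shown. Red points are NmU arrays, blue points are PBS arrays, and black bars are means with SD (n = 4, and 3 for NmU at 3 h). Dnajc1 is higher on all NmU arrays than on all PBS arrays from 3 h on, and Dnajb1 is higher on NmU arrays at 0.8 h and lower at 3 and 12 h.

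Dnajc8, a J-domain protein associated with the spliceosome in human cells, fell at 6 h by 1 of its 2 probe sets. In the probe set that fell, the signals were 1499, 1507, 1442 and 1319 on NmU arrays and 1936, 1778, 1728 and 1604 on PBS arrays. The groups did not overlap, and the log2 fold change was -0.29 ± 0.08 (limma adjusted p = 0.0399). The other gave 0.08 ± 0.19 (limma adjusted p = 0.878), so that the probe sets disagreed.

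Dnajb9, a J-domain protein of the endoplasmic reticulum lumen that is a target of the unfolded protein response, differed most at 0.8 and 12 h. The brighter of its probe sets read 176, 215, 241 and 167 on NmU arrays and 108, 148, 152 and 105 on PBS arrays at 0.8 h. The groups did not overlap, with a difference of 0.64 ± 0.26 on the log2 scale (limma adjusted p = 0.521). At 3 h the PBS arrays spread widely, from 77.8 to 226, and the NmU arrays lay among them, with a difference of -0.48 ± 0.28. At 12 h the signals were 232, 159.8, 243 and 210.4 on NmU arrays and 133, 103, 107 and 120.3 on PBS arrays, again without overlap, and the difference was 0.86 ± 0.26 (limma adjusted p = 0.117). A second tested probe set of Dnajb9, with a mean signal of 24.1, overlapped between the groups at every time, at 12 h with 31.9, 25.3, 19.4 and 17.9 on NmU arrays and 18.4, 32.5, 20.3 and 20.1 on PBS arrays. No single time passed for either, while the F test for a change at any time did for the first (limma adjusted p = 0.0159) and not for the second (0.823). That test called 5 of 60 members, against 11.6% of all probe sets. Besides Dnajb9 they were Dnajc1 (adjusted p = 3.87e-04), Dnajb1 (0.00313), Dnajc9 (0.00540) and Dnajb13 (0.0335), the last with mean log2 fold changes below 0 at all 4 times.

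Of the other J-domain genes of the endoplasmic reticulum, none was called at a single time. Dnajb11, which works with Hspa5 on newly made proteins, had log2 fold changes of -0.04, 0.19, 0.19 and 0.27 at the 4 times. Dnajc3, an inhibitor of the stress kinase PERK, ranged over its 3 probe sets and 4 times between -0.37 and 0.25. Dnajc10, which reduces disulfide bonds, ranged between -0.16 and 0.10. In the cytosol, Dnaja1 averaged 505 ± 39.5 on NmU arrays and 575 ± 44.2 on PBS arrays at 6 h (SD, n = 4 each), with a difference of -0.19 ± 0.10 (limma adjusted p = 0.325). Dnaja3, a mitochondrial J-domain protein, was higher on all NmU arrays at 3 h but by only 0.20 ± 0.11 (limma adjusted p = 0.283).

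In the Hsp70 and Hsp110 family, Hspa4l rose at 3 h. It encodes an Hsp110 protein, a nucleotide exchange factor for Hsp70. Its signals were 98.6, 104 and 80.5 on NmU arrays and 73.0, 51.0, 64.2 and 64.8 on PBS arrays, with no overlap, and the log2 fold change was 0.58 ± 0.17 (limma adjusted p = 0.0229). At 0.8, 6 and 12 h the groups overlapped, with differences of 0.09, 0.03 and -0.16. The related Hspa4 had 5 tested probe sets that disagreed at 3 h. Of these, 2 (0.31 ± 0.10, limma adjusted p = 0.0538, and 0.49 ± 0.19, limma adjusted p = 0.107) were higher on all NmU arrays, while the one with the highest mean signal gave -0.11 ± 0.18.

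Hsph1 and Hspa8 show what the PBS array that stood apart does to the 3 h comparison. Hsph1 read 1855, 1431 and 1423 on NmU arrays and 1019.8, 861, 999.8 and 1839.7 on PBS arrays. Only the array in question, the last of the PBS values, reached the NmU range. With it the difference was 0.47 ± 0.21 (limma adjusted p = 0.165), and without it 0.70 ± 0.18 (limma adjusted p = 0.0123). Hsph1 also had a high PBS array at 0.8 h, 1844.7, against 1003.3 to 1086 on the other 3. Hspa8, the constitutive cytosolic Hsp70, read 3184, 2929 and 2904 on NmU arrays and 2248, 2743, 2549 and 3489.8 on PBS arrays at 3 h. Here the last PBS array was above all NmU arrays and the other 3 were below them. Its difference was 0.14 ± 0.14 with the array and 0.26 ± 0.13 without it, and neither passed (limma adjusted p = 0.586 and 0.218). At 0.8, 6 and 12 h its groups overlapped, with differences of -0.14, -0.05 and 0.11.

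Without that array limma called 7 of 60 members at 3 h (11.7%), against 11.6% of all 7948 probe sets then tested. The 4 members called with it were all among them. The 3 others, all higher with NmU, were Hsph1, Hspa9 and Dnajc2. For each of them the array read above the other 3 of its group, so leaving it out could only raise the difference. Hspa9, the Hsp70 of mitochondria, read 1191, 1098 and 1203 on NmU arrays and 826, 868, 1062 and 1080.4 on PBS arrays. Its groups did not overlap even with the array, and the difference was 0.29 ± 0.10 (limma adjusted p = 0.0627), or 0.35 ± 0.10 without it (limma adjusted p = 0.0230). Dnajc2, a J-domain protein of the ribosome that acts on emerging chains, gave 0.48 ± 0.18 by 1 of its probe sets (limma adjusted p = 0.0883) and 0.66 ± 0.17 without the array (limma adjusted p = 0.0106). Its other probe set gave 0.28 ± 0.11 without the array and was not called (limma adjusted p = 0.107). The NmU and PBS arrays did not overlap for 12 of 60 members with the array (7 higher and 5 lower) and 18.7% of all probe sets (8.12% higher and 10.6% lower), and for 24 members without it, against 29.6% of all. Leaving out an array makes non-overlap easier for every probe set. The counts of called members at 0.8, 6 and 12 h were the same with and without it.

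**Figure D3:**
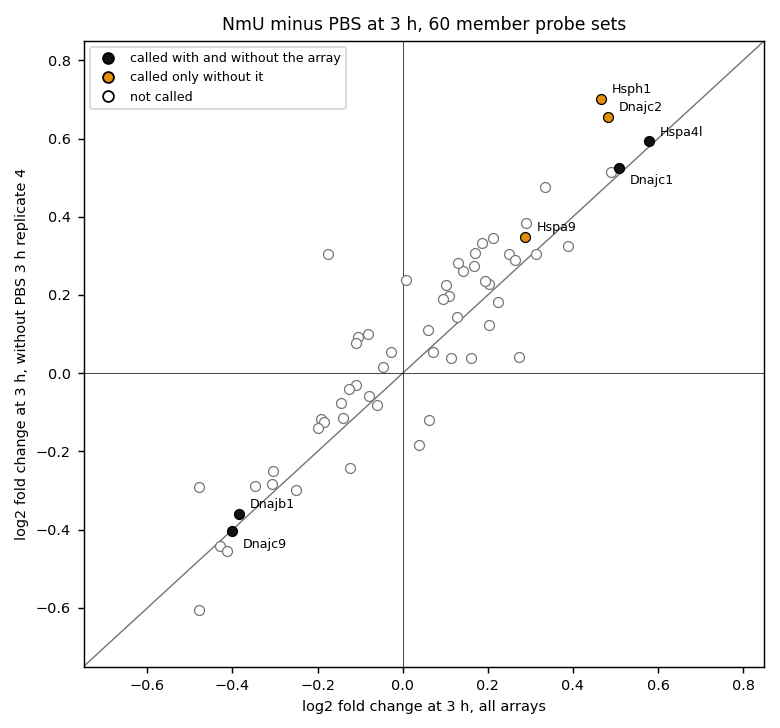
Log2 fold change of NmU over PBS at 3 h for the 60 member probe sets, on all arrays (x axis) and without the PBS array of replicate number 4 (y axis). Black points were called by limma in both fits, orange points only without the array, open points in neither, and the line marks equal values. Hsph1, Dnajc2 and Hspa9 lie above the line and were called only without the array.

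Hsp90 was represented by Hsp90aa1, the inducible cytosolic form, of which 1 of 2 probe sets was kept. Its signals at 6 h were 3668, 3603, 4122 and 3206 on NmU arrays and 3943, 4800.3, 4402 and 4494 on PBS arrays. The groups overlapped by 1 array each, and the difference of -0.28 ± 0.10 did not pass (limma adjusted p = 0.124). At 0.8, 3 and 12 h the differences were 0.07, -0.11 and -0.03, and the 95% interval of the fold at 12 h was 0.85 to 1.13.

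The mitochondrial chaperonin genes Hspd1 and Hspe1, whose promoters share the element shown above, were called at no time. Hspd1, the ring subunit, read 4495, 3758 and 4368 on NmU arrays and 2962, 3444, 3810.3 and 4966 on PBS arrays at 3 h. The PBS values enclose the NmU values, and the difference was 0.17 ± 0.18 with the last array and 0.31 ± 0.17 without it (limma adjusted p = 0.618 and 0.284). For Hspe1, the lid subunit, the means at 3 h were 2031 ± 157 on 3 NmU arrays and 1826 ± 318 on 4 PBS arrays (SD), and the difference was 0.17 ± 0.12 (limma adjusted p = 0.418). By these probe sets both genes had small negative differences at 0.8 h, -0.20 and -0.15, and positive ones at 12 h, 0.17 and 0.10, within the spread of their arrays. A second, dim probe set of Hspd1 (mean signal 24.3) gave 0.68, -0.11, 0.65 and 0.44 at 0.8, 3, 6 and 12 h and was not called. The probe sets of Hspd1 thus disagreed in sign at 0.8 and 3 h.

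**Figure D4:**
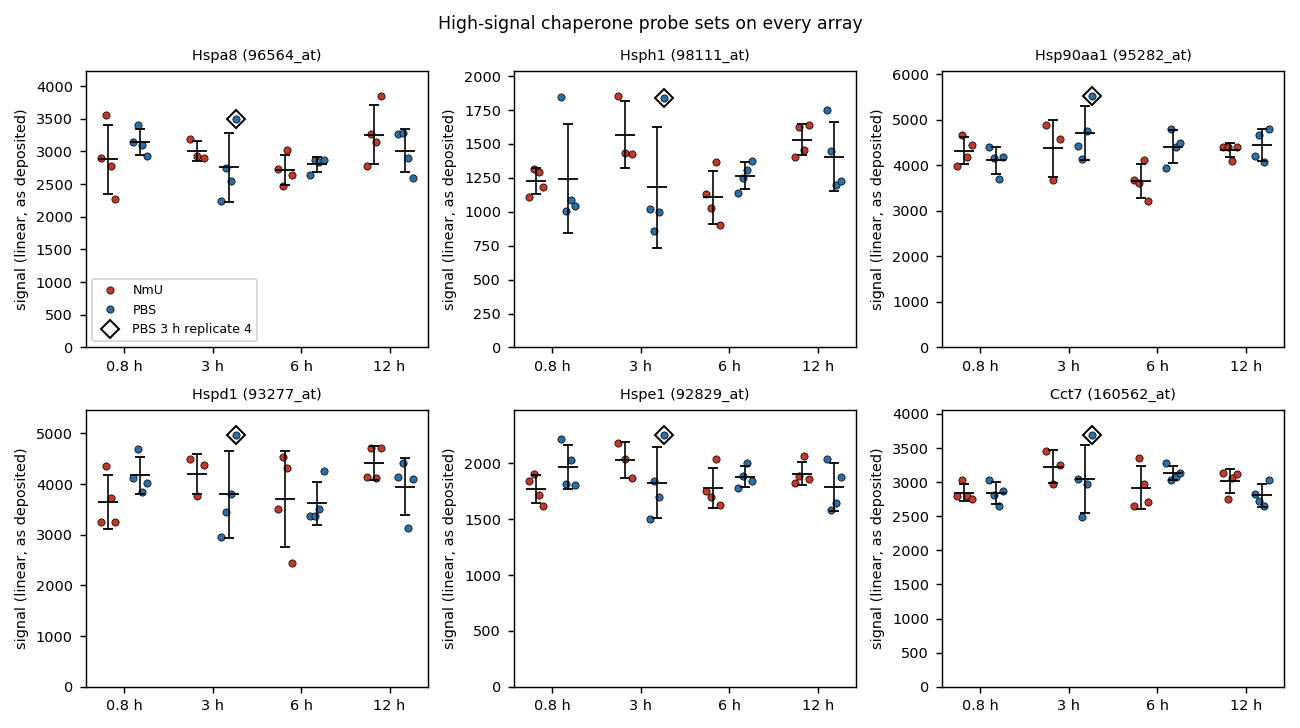
Signal (y axis, linear, as deposited) on every array at each time (x axis) for 6 chaperone probe sets with high signal. Red points are NmU arrays, blue points are PBS arrays, black bars are means with SD (n = 4, and 3 for NmU at 3 h), and the diamond marks the PBS array at 3 h that stood apart. It is the highest of its group in all 6 panels, and none of the 6 probe sets was called with all arrays. The panels were picked by hand. For the brighter probe set of Dnajb6, also of high signal and not shown, the same array was the lowest of its group (2496.7, against 2704.2 to 2896.2).

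The 3 tested probe sets of small heat shock proteins had mean signals of 34.7 to 53.5, with no array at or under the floor. Hspb2, known from muscle, read 64.5, 66.6, 45.2 and 69.2 on NmU arrays and 53.4, 58.4, 35.1 and 27.4 on PBS arrays at 6 h, and its difference of 0.54 ± 0.24 did not pass (limma adjusted p = 0.223). Hspbp1, a nucleotide exchange factor that binds Hsp70, had differences between -0.18 and 0.21 over the 4 times.

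The cytosolic chaperonin, which folds actin and tubulin, was measured through 11 probe sets for 8 Cct genes and was called at no time with all arrays. Cct7 read 3457, 2976 and 3246 on NmU arrays and 3051, 2482, 2968 and 3689 on PBS arrays at 3 h, again with the last PBS array above the rest. Its differences were 0.00, 0.09, -0.11 and 0.10 at the 4 times, with a 95% interval of the fold at 0.8 h of 0.88 to 1.15. Cct4 gave 0.29 ± 0.13 at 3 h, and 0.38 ± 0.13 without the array that stood apart (limma adjusted p = 0.171 and 0.0592). The probe sets of Cct3 disagreed at 3 h, with 0.19 ± 0.13, -0.35 ± 0.12 and -0.31 ± 0.12 (limma adjusted p = 0.423, 0.0542 and 0.110). The second of these passed under 5 of the alternative settings, and Cct4 under 1. For Cct5 the dimmer probe set was higher on all NmU arrays at 6 and 12 h, by 0.41 ± 0.21 and 0.48 ± 0.21, without passing, and the brighter one gave 0.04 ± 0.09 and 0.12 ± 0.09. Dnajb6, a J-domain protein that keeps proteins from aggregating and whose promoter is shown above, had 1 probe set higher on all NmU arrays at 3 h (0.22 ± 0.08, limma adjusted p = 0.0760) and another at -0.25 ± 0.11 (limma adjusted p = 0.143).

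A lack of calls does not show that a transcript was unchanged, so the intervals matter. Of the 60 members, the 95% interval of the fold lay wholly within 1.5-fold either way for 47 at 0.8 h, 35 at 3 h, 44 at 6 h and 44 at 12 h. It lay within 2-fold for 54, 55, 54 and 55. Among the 45 members with a mean signal over 100, 44 had an interval within 2-fold at each time.

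In vehicle alone no member was called for a change over the time course. The limma F test over the 4 PBS times called 0 of 60 members (3 at an unadjusted p under 0.05, which were Hspa1l, 1 probe set of Hspa4, and Dnaja1, against 8.74% of all), with 0.0126% of all probe sets called. Dnaja1, a cytosolic J-domain partner of Hsp70, was -0.24 at 12 h relative to 0.8 h in PBS on the log2 scale.

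Of 44 other genes of the folding machinery (heat shock factors, co-chaperones of Hsp70 and Hsp90, chaperonin partners, mitochondrial proteases and exchange factors, and other stress-induced genes), 36 are on the array and 31 were tested. None was called at 0.8, 3 or 12 h, where 0.845%, 10.2% and 1.26% of all probe sets were called. At 6 h 1 of the 31 was called, against 4.88% of all. This was Chordc1, a co-chaperone of Hsp90, which fell, averaging 461 on NmU arrays and 557 on PBS arrays (-0.27 ± 0.08, limma adjusted p = 0.0350). Without the PBS array that stood apart, 2 further genes were called at 3 h, both higher, where 11.6% of all probe sets were called in either direction. These were Bag3, an Hsp70 co-chaperone known as a heat shock factor target (0.53 without the array, limma adjusted p = 0.0338, and 0.46 with it, limma adjusted p = 0.0570), and Pfdn2, a subunit of the prefoldin complex that hands proteins to the cytosolic chaperonin (0.49, limma adjusted p = 0.00738, and 0.36 with it, limma adjusted p = 0.0821). Tcp1, the remaining subunit of the cytosolic chaperonin, averaged 196 on NmU arrays and 199.9 on PBS arrays at 3 h and differed by at most 0.13 in size at the 4 times. Hsf1 has no probe set named here, and Hsf2 was below the filter, with a mean signal of 5.21.

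The calls rest on the spread shared by all 31 arrays. Fitted with the arrays of 1 time only, limma called 0 of 58 members at 3 h and 0 of 58 at 6 h. Calls were few over all probe sets too in that fit, with 131 higher and 77 lower of 7603 at 3 h. At 6 h they were 148 higher and 68 lower of 7532. After scaling to a common median the falls of Dnajc9 and Dnajb1 (limma adjusted p = 0.0898 and 0.0885), the rise of Dnajc1 at 6 h (0.152) and the fall of Dnajc8 (0.0825) no longer passed. Single arrays decided some calls: Hspa4l was not called without PBS replicate 2 or NmU replicate 1 or 2 of the 3 h groups (limma adjusted p = 0.0791, 0.0914 and 0.108), and Dnajb1 not without NmU replicate 3 (0.0818). At 6 h no member was called without PBS replicate 1, PBS replicate 3, NmU replicate 1 or NmU replicate 3, and only Dnajc1 was called without PBS replicate 2 or NmU replicate 4.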

How the data were processed

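Total RNA of 31 samples was hybridised to 1 array each. The values deposited by the authors were intensities of probe sets in 1 colour, on a linear scale. The software that scanned, summarised and scaled them is not given in the sources used here. Their trimmed means (2% taken off each end) were 150.1 on all arrays, showing scaling before deposit, and the intensities were used unchanged, so that each difference is relative to total signal. The intensities are not counts, and the number of arrays limits the precision.

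Intensities under 5.8 (the 20th percentile) were raised to it before log2 was taken, which understates changes of dim probe sets. Probe sets with a mean log2 value above log2 of 20.2 (the 40th percentile) in at least 1 group were kept. All arrays entered 1 group-means model in limma 3.58.1 (R 4.3.3), with 23 residual and 2.72 prior degrees of freedom. P-values were two-sided with Benjamini-Hochberg adjustment over 7930 probe sets, called under 0.05. Errors of log2 fold changes are SE. The procedure was tested on simulated data. Each probe set was counted on its own. Per-array values are given for members called at a time, for the probe set with the highest mean signal in each family, and for members whose call turned on 1 array. Groups come from the sample titles. No pair of arrays was identical, and within-group correlations over probe sets lay between 0.951 and 0.982. Alternatives covered the floor, the filter, the scaling, the model, the replicate block, gene averages and leaving out each array. The members and lists were chosen with earlier results of these data known. Searches of protein sequences were not run.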

Additional observations from a re-analysis of the deposited data

Results flagged for a closer look

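Single arrays were compared with the rest of their group for 13 member probe sets, those called at a time and that with the highest mean signal in each family. In groups of 4 arrays, the gap of the highest or lowest array to its neighbour was set against the range of the group. Of 91 such groups, 8 had an array beyond Dixon's 95% limit, and chance alone flags about 1 in 20 groups. With low signal, Dnajb1 read 141.6 on PBS replicate 2 at 3 h (nearest array 176.5), Dnaja1 read 580.2 on NmU replicate 2 at 0.8 h (642.9), Hspa8 read 2639.8 on PBS replicate 1 at 6 h (2831.9), and Hsp90aa1 read 4101.6 on NmU replicate 3 at 12 h (4397.6). With high signal, Dnajc9 read 1499.1 on PBS replicate 3 at 0.8 h (1329), Hspd1 read 4252.8 on PBS replicate 4 at 6 h (3501.7), Hspbp1 read 188.9 on PBS replicate 1 at 3 h (161.3), and Cct7 read 3031.3 on NmU replicate 2 at 0.8 h (2800.5). The PBS array at 3 h with replicate number 4, described above, is not among these arrays. The low Dnajb1 array lies in the group that gave its fall at 3 h, and it is the PBS array closest to the NmU arrays there.

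The effect of NmU differed between the times for Dnajb1 (limma F test, adjusted p = 0.0102) and for Dnajc9 (adjusted p = 0.0107), with the values given above.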

How the results depend on the processing

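Changes of sign were looked for in the 13 member probe sets compared above and in the family medians, not in the other members. For those 13, no value that was called, with all arrays or under an alternative, changed sign. Values that were not called did so for 15 of 52 log2 fold changes of single probe sets and 18 of 28 family medians, each no larger than 0.11 in size with all arrays. The DnajB median at 3 h reached -0.32 with a filter at the 60th percentile. The call count at 0.8 h was 0 under every alternative. At 3 h, where 4 of 60 members were called, the count was 8 of 66 with a floor at the 40th percentile and 9 of 48 with a filter at the 60th. It was 2 after scaling to a common median, 0 with only the 2 groups compared, 9 with array weights and 7 with an intensity trend in eBayes. Over all probe sets, the calls were 382 higher and 478 lower of 5324 with that filter, and 461 and 604 of 7930 with array weights. With this floor or filter, no filter, array weights, the trend or the replicate block, the members' share at 3 h was above that of all probe sets. Leaving out 1 array at a time gave a count of 3 to 7, with 7 only without PBS replicate 4 at 3 h. At 6 h, where 2 were called, it was 0 after scaling to a common median, 1 after quantile normalization, 0 with only the 2 groups compared and 0 with all probe sets of a gene averaged, and 0 to 2 without 1 array. At 12 h it was 0, but 1 (Dnajb9, limma adjusted p = 0.0480) with only the 2 groups compared, where 47 higher and 15 lower of 7587 probe sets were called. The F test for any time called 5 members, and 4 to 6 without 1 array. The test of effects that differ between times called 2, 1 after scaling to a common median, and 2 to 3 without 1 array. With probe sets averaged, Dnajc1 was not called at 3 h, where its dim second probe set enters the mean. Across alternatives the limma adjusted p at 3 h was 0.00117 to 0.0668 for Dnajc1, 8.93e-04 to 0.126 for Dnajc9, 0.00345 to 0.186 for Dnajb1 and 0.00794 to 0.115 for Hspa4l, and at 6 h 0.00919 to 0.152 for Dnajc1 and 0.0159 to 0.158 for Dnajc8. Called at 3 h only under alternatives were 11 further probe sets, of Hspa4 (2), Hspa9, Hsph1, Dnajb6, Dnajb13, Dnajc2, Dnajc17, Dnajc21, Cct3 and Cct4. The cause of each of these shifts was not tested. Over all probe sets, the calls at 3 h were 352 higher and 454 lower, 131 and 77 with only the 2 groups compared, and 322 and 266 after scaling to a common median. At 6 h they were 226 and 161, 148 and 68 with only the 2 groups compared, 361 and 316 with array weights, and 114 and 178 after scaling to a common median.

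Replicate numbers are shared between the groups, and whether they pair the arrays was not tested. Deviations of same-numbered arrays from their group means correlated at -0.22 to 0.20, and 7 of 15 arrays correlated best with their own number. With the replicate number as a block, 7 of 60 members were called at 3 h (6 higher and 1 lower, with Dnajb1 not called, limma adjusted p = 0.0937). Over all 7930 probe sets 350 were then higher and 476 lower. At 12 h 1 member was called (Dnajb9, limma adjusted p = 0.0412), with 69 of all probe sets higher and 22 lower. The F test for any time called 3 members with the block, and its share over all probe sets is not given here. The block gives PBS replicate 4 at 3 h no partner and so leaves it out. Dim members have wide intervals, and signal over the floor limits them.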
